A study of Mus musculus with 6 samples.

Results

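A set of 9 of 10 genes listed as transcriptional targets of the tumour suppressor p53 were followed in hearts from C57BL/6J mice on postnatal day 14: Mdm2, Ccng1, Bbc3, Perp, Eda2r, Sesn1, Trp53inp1, Zmat3 and Phlda3. They were chosen by name, each was read from 1 transcript cluster annotated to that gene alone, and they stand among 19938 genes measured in this way. For the remaining member, Bax, no cluster was matched by symbol, and it was not analysed here. The mice had received ETX (3 hearts, replicates 6, 7 and 10) or the vehicle phosphate-buffered saline, PBS (3 hearts, replicates 3, 9 and 12), for 1 week. All 6 hearts shared strain, age and tissue, each had its own Affymetrix array, and the labels call them biological replicates without spelling out ETX. The values are the authors' log2 signals, which compare a gene between hearts but not 1 gene with another.

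p53 is a transcription factor that is kept low by constant degradation and accumulates after DNA damage and other stress. It then switches on genes that stop the cell cycle, repair DNA, restrain growth signalling or start apoptosis, together with genes that shut p53 down again. In the postnatal heart muscle cells leave the cell cycle, a period in which DNA damage and its response are known to be active. A transcript of a target gene is not a measure of p53 activity, because other factors also act on each of these genes.

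The DNA element that p53 binds is a pair of decamers, and matches to it just before annotated starts are shown here for 3 members. Sequence inside the genes or farther away was not searched, so a member without a match can still hold an element. The RefSeq tables (build GRCm38.p6) held promoter windows for 7 of the 10 members. There was none for Trp53inp1, Perp and Zmat3, which were therefore not searched. The 250 bases before each annotated start were searched on both strands, with no spacer between the decamers. Allowing up to 3 mismatches outside the fixed C and G positions, the p53 consensus was found in windows of 3 members, Ccng1, Bbc3 and Sesn1, and in 1.14% of all 32851 windows. With up to 2 mismatches it was found in 1 member, Ccng1, and in 0.271% of windows. The windows are printed 5′ to 3′ on the strand of the gene, with the matched 20 bases in capitals; the Bbc3 and Sesn1 windows are 1 of 3 and 1 of 2 annotated for those genes.
Ccng1: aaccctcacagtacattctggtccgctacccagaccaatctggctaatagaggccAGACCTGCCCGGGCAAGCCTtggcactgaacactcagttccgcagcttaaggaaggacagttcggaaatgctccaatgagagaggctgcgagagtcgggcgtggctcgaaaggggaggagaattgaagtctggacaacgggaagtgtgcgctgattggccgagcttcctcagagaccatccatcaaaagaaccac
Bbc3: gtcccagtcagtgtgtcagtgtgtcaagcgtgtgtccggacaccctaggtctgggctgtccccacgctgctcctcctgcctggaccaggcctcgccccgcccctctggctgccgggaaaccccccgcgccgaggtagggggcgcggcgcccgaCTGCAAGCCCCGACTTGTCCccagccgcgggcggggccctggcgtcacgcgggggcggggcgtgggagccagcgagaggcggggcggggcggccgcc
Sesn1: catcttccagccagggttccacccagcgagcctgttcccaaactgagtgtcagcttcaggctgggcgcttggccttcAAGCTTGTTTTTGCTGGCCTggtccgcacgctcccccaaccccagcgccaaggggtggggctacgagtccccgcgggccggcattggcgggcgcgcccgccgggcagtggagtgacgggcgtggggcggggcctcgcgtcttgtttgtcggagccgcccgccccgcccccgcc
The Ccng1 match lies at chr11:40755462-40755481 on the minus strand with 1 mismatch. The Bbc3 match lies at chr7:16309486-16309505 and the Sesn1 match at chr10:41887266-41887285, both on the plus strand with 3 mismatches. For comparison, the same search found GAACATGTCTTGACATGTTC with 1 mismatch at chr17:29090928-29090947, in a promoter window of Cdkn1a, the cell cycle inhibitor that is the textbook p53 target. The level of Cdkn1a is not reported because its cluster carries several genes. The number of mismatches was chosen with known p53 elements in mind, and a match is a description of letters, not evidence of binding. Of the 3 genes with a match, Sesn1 fell in ETX hearts, while Ccng1 and Bbc3 did not pass the test. The other called members, Trp53inp1 and Perp, had no window, so matches cannot be set against the calls.

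The members did not move as 1 group. In ETX hearts Sesn1 and Trp53inp1 fell, Perp rose, and the other 6 did not pass the test. Differences were tested with limma over 14953 genes with a mean log2 signal of at least 3.45, the lower quartile over genes, with Benjamini-Hochberg adjusted p under 0.05 as the threshold, and all 9 members were above that filter. Of the members, 2 of 9 fell, where 2.43% of all genes tested did, and 1 rose, where 1.14% did, or 3 of 9 against 3.56% in both directions. ETX and PBS values did not overlap for 4 of 9 members, against 27.7% of all genes. The list was drawn up with earlier results of these arrays known, so these counts describe the members and are not a test of the list. The median log2 difference of the 9 members, ETX minus PBS, was -0.05, beside -0.01 for all genes tested. The mean log2 signal of the 9 members lay between 7.08 and 7.15 in ETX hearts and between 7.16 and 7.24 in PBS hearts. The nearest hearts, ETX replicate 7 and PBS replicate 9, were at 7.146 and 7.159. That mean pools members that fell with 1 that rose, so it does not describe a shared fall.

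**Figure D1:**
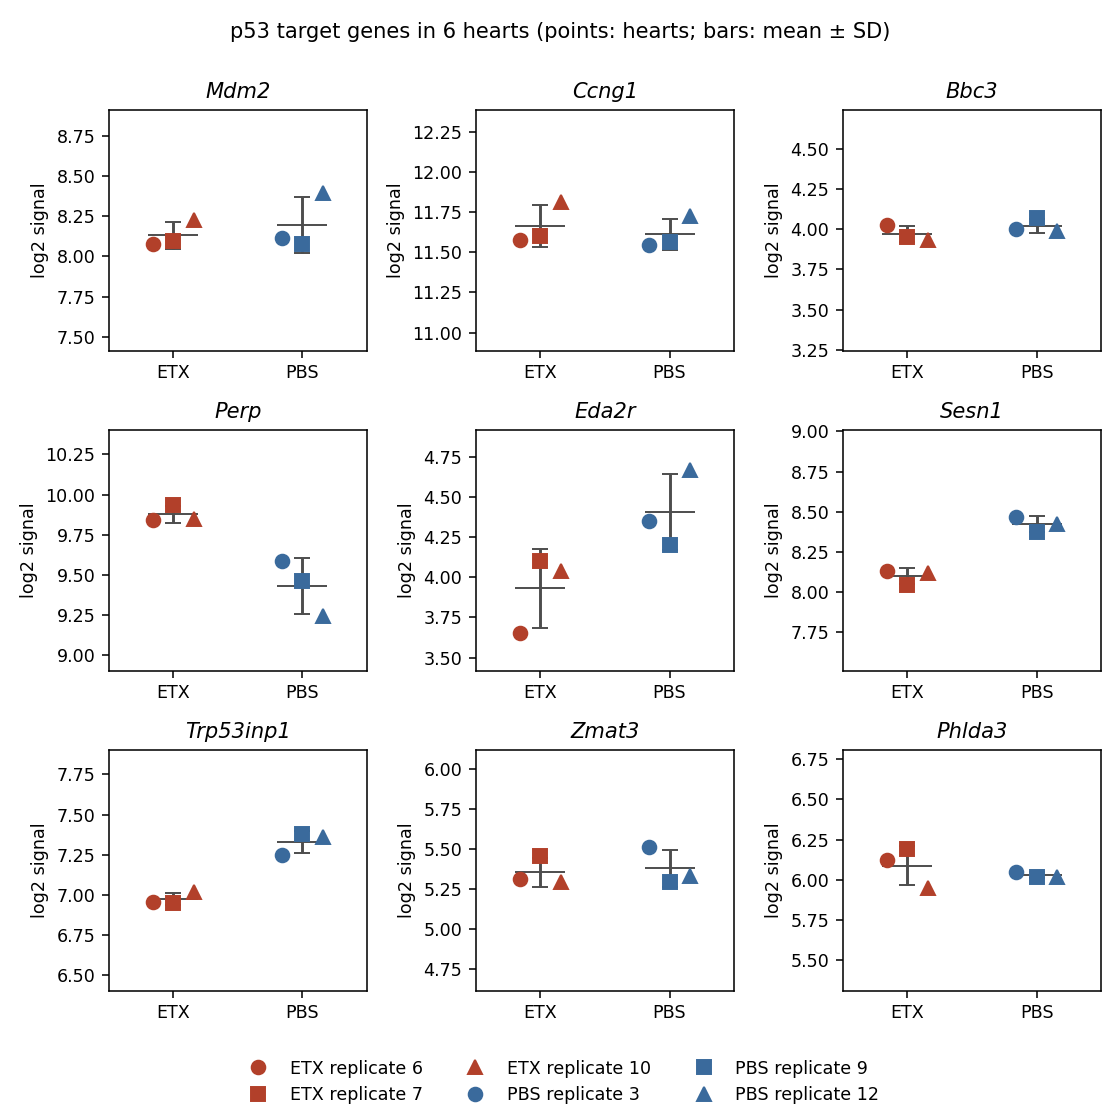
Log2 signal of the 9 p53 target genes in each heart, ETX on the left and PBS on the right, with the mean and SD of 3 hearts; every panel spans the same range of 1.5 log2 units. Perp lies higher and Sesn1, Trp53inp1 and Eda2r lie lower in all 3 ETX hearts than in any PBS heart, while the groups overlap for the other 5 genes.

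The feedback genes, Mdm2 and Ccng1, did not pass the test. Mdm2 encodes the ubiquitin ligase that marks p53 for degradation. It was at 8.08, 8.09 and 8.23 in ETX replicates 6, 7 and 10, against 8.11, 8.07 and 8.40 in PBS replicates 3, 9 and 12. The groups overlapped, and the highest heart of each group stood apart from the rest. The log2 difference of Mdm2 was -0.06, with a 95% interval of -0.29 to 0.16 (limma adjusted p = 0.757). Ccng1, cyclin G1, helps a phosphatase to activate Mdm2. It was at 11.58, 11.60 and 11.81 in ETX hearts and at 11.55, 11.56 and 11.72 in PBS hearts, in the same order of replicates, so that ETX replicate 10 and PBS replicate 12 were again the highest of their groups. The log2 difference of Ccng1 was 0.05 (95% interval -0.15 to 0.25, limma adjusted p = 0.779). For both genes the interval leaves room for a change of that width in either direction, and equal levels were not shown. The sign of Mdm2 turned without PBS replicate 12, and that of Ccng1 without ETX replicate 10. With the mean of the lung epithelium markers in the fit, the log2 difference was -0.228 for Mdm2 and -0.033 for Ccng1. Neither passed (limma adjusted p = 0.285 and 0.907). Without PBS replicates 3 and 9, which were high in lung transcripts, it was -0.263 for Mdm2 and -0.062 for Ccng1.

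Perp rose in ETX hearts, and Bbc3 did not pass. Perp, a membrane protein of desmosomes that p53 can activate in dying cells, was at 9.84, 9.94 and 9.85 in ETX replicates 6, 7 and 10, against 9.59, 9.46 and 9.24 in PBS replicates 3, 9 and 12. All 3 ETX hearts lay above every PBS heart, and the PBS hearts were spread more widely. Perp averaged 9.88 ± 0.05 in ETX and 9.43 ± 0.17 in PBS hearts (SD, n = 3 each), a 1.36-fold rise (log2 difference 0.45 ± 0.09 SE, limma adjusted p = 0.046). Bbc3, the BH3-only protein PUMA that releases the mitochondrial death pathway, ranged from 3.93 to 4.03 in ETX hearts and from 3.99 to 4.07 in PBS hearts. Its log2 difference was -0.05 (95% interval -0.20 to 0.10, limma adjusted p = 0.694). Bbc3 was dim, below the lowest array median of 4.43 in every heart. Differences at such levels are compressed, so the narrow interval does not show an unchanged transcript.

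Eda2r, a receptor of the tumour necrosis factor family that binds the ectodysplasin A2 ligand, had the largest difference of the 9 members without passing. It was at 3.65, 4.10 and 4.04 in ETX replicates 6, 7 and 10, against 4.35, 4.20 and 4.67 in PBS replicates 3, 9 and 12. The groups did not overlap, but the gap between ETX replicate 7 and PBS replicate 9 was small beside the spread within the groups. Eda2r was also dim: all ETX hearts lay below the lowest array median of 4.43, and of the PBS hearts only replicate 12 lay above it. The log2 difference was -0.47 ± 0.15 SE (limma unadjusted p = 0.0132, adjusted p = 0.122). It was -0.34 without ETX replicate 6 and also without PBS replicate 12, and -0.74 without PBS replicates 3 and 9, and it passed in none of these fits.

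Of the 9 members, Sesn1 and Trp53inp1 fell. Sesn1 encodes a sestrin, a stress-induced protein that restrains the growth kinase complex mTORC1 and is known to respond to FOXO factors as well as to p53. It was at 8.13, 8.04 and 8.12 in ETX replicates 6, 7 and 10, against 8.47, 8.37 and 8.42 in PBS replicates 3, 9 and 12. Every ETX heart lay below every PBS heart, and the spread within each group was small. Sesn1 averaged 8.10 ± 0.05 in ETX and 8.42 ± 0.05 in PBS hearts (SD, n = 3 each) and was 1.25-fold lower in ETX (log2 difference -0.32, limma adjusted p = 0.0394).

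Trp53inp1, a stress protein that acts with p53 in apoptosis and takes part in autophagy, also fell. It was at 6.96, 6.95 and 7.02 in ETX replicates 6, 7 and 10, against 7.25, 7.38 and 7.36 in PBS replicates 3, 9 and 12. It averaged 6.98 ± 0.04 in ETX and 7.33 ± 0.07 in PBS hearts (SD, n = 3 each), 1.28-fold lower in ETX (log2 difference -0.35, limma adjusted p = 0.0348). As with Sesn1, no ETX heart reached the lowest PBS heart.

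The remaining members showed no difference past the threshold. Zmat3, a zinc finger protein that binds RNA, ranged from 5.29 to 5.45 in ETX hearts and from 5.29 to 5.51 in PBS hearts (log2 difference -0.03, 95% interval -0.22 to 0.17, limma adjusted p = 0.89). Phlda3, which competes with the kinase Akt for membrane lipids, ranged from 5.95 to 6.19 in ETX hearts and from 6.02 to 6.05 in PBS hearts (log2 difference 0.06, 95% interval -0.12 to 0.24, limma adjusted p = 0.702). The PBS hearts lay inside the ETX range for Phlda3.

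**Figure D2:**
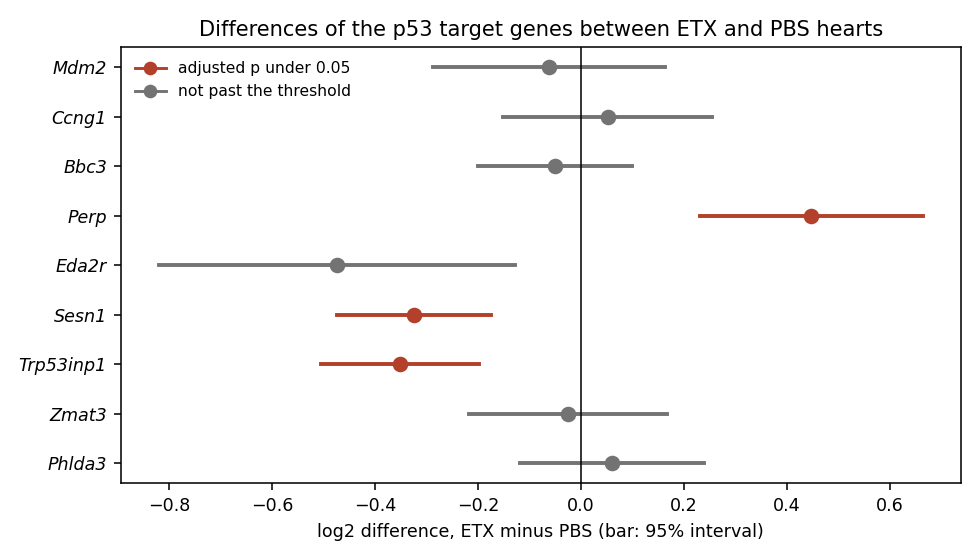
Log2 difference, ETX minus PBS, of each p53 target gene with its unadjusted 95% interval from the limma fit over 3 hearts a group. Sesn1, Trp53inp1 and Perp passed an adjusted p of 0.05; the interval of Eda2r, -0.82 to -0.13, leaves out 0, although its adjusted p was 0.122.

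The 3 calls stood close to the threshold. With any 1 of the 6 hearts left out, each of ETX replicates 6, 7 and 10 and PBS replicates 3, 9 and 12 in turn, 0 of 9 members passed in limma, while 4 of 9 had an unadjusted p under 0.05 in each of these fits. With all hearts it was also 4 of 9, where 21.9% of all genes had one. In these fits the log2 difference ran from -0.35 to -0.30 for Sesn1 (limma adjusted p = 0.0678 to 0.143), from -0.39 to -0.33 for Trp53inp1 (0.0639 to 0.128) and from 0.35 to 0.53 for Perp (0.0585 to 0.153). Sesn1, Trp53inp1, Perp and Eda2r kept their direction in all alternatives that held them, and so did Bbc3, which was not called. The filter at the median left out Eda2r and Bbc3. For the 4 members without overlap, leaving out hearts cannot turn the sign, and the filter and empirical Bayes options do not change the difference. Their kept direction is therefore no added support. An exact permutation test of a single gene in 3 against 3 hearts cannot go below p = 0.1.

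**Figure D3:**
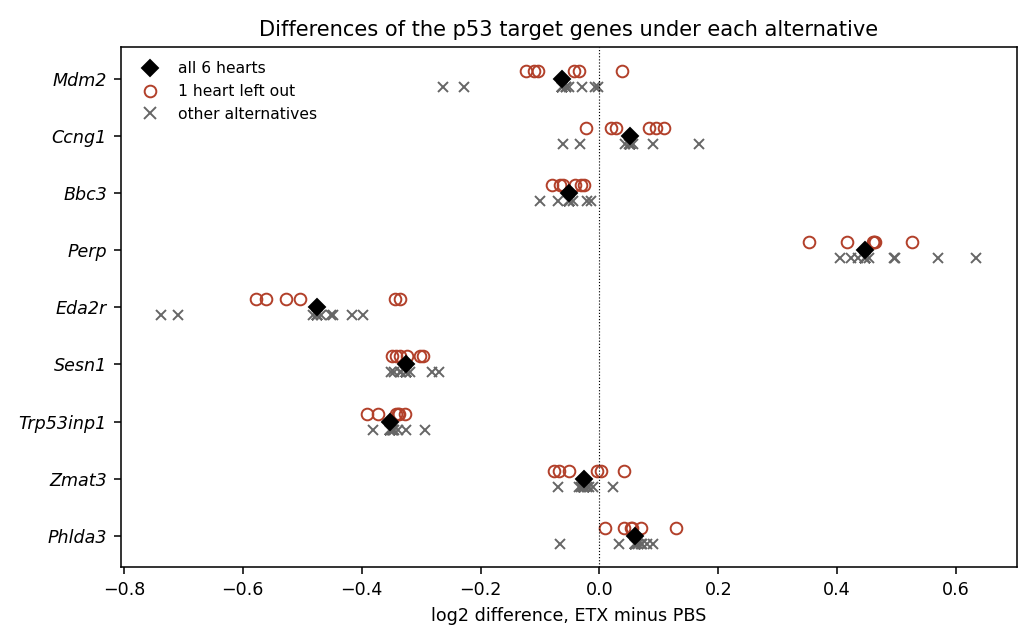
Log2 difference, ETX minus PBS, of each p53 target gene with all 6 hearts (diamonds), with 1 heart left out (circles) and under the other alternatives (crosses). Sesn1 and Trp53inp1 stay between -0.39 and -0.27, Perp stays between 0.35 and 0.63, and Mdm2, Ccng1, Zmat3 and Phlda3 lie on both sides of 0.

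The hearts also differed in transcripts of other tissues. The defining ventricular marker Myl2 was at 12.68 to 12.80 in ETX and 12.73 to 12.78 in PBS hearts. Of the 11 genes listed here as ventricular cardiomyocyte markers, 5 did not overlap between the groups, against 27.7% of all genes. Of these 5, Irx4 and Mybpc3 were higher and Tnni3, Pln and Myh6 lower in ETX. The ventricular transcription factor Irx4 was the 1 called, or 9.09% against 3.56% of all genes. It was at 7.58 ± 0.03 in ETX and 7.20 ± 0.06 in PBS hearts (SD, n = 3 each, limma adjusted p = 0.0279). Lung epithelium markers were high in 2 PBS hearts: Sftpc was at 3.10 to 3.31 in ETX hearts, against 8.12, 8.58 and 3.59 in PBS replicates 3, 9 and 12, and the summed signal of the 11 markers was 7.37 to 7.42 in ETX and 7.27 to 11.29 in PBS hearts on the log2 scale. Without PBS replicates 3 and 9 the log2 difference was 0.63 for Perp, -0.33 for Sesn1 and -0.38 for Trp53inp1 (limma adjusted p = 0.0763, 0.189 and 0.149), with PBS replicate 12 as the single PBS heart. With the mean of the lung markers in the fit it was 0.569 for Perp, -0.345 for Sesn1 and -0.349 for Trp53inp1 (limma adjusted p = 0.0793, 0.135 and 0.139). None of the 3 passed in either fit. Of the 12 epithelium markers 0 of the 10 tested were called in limma (2 at an unadjusted p under 0.05), with a summed signal of 11.05 to 11.09 in ETX and 11.15 to 11.26 in PBS hearts. Dsp and Jup, by far the brightest of the list, carry that sum. The mean log2 signal of the 12 markers was 5.12 to 5.29 in ETX hearts, against 5.28, 5.78 and 5.03 in PBS replicates 3, 9 and 12. Cdh1 was at 3.78 to 3.87 in ETX hearts, against 4.07, 5.06 and 3.72 in these PBS hearts. By the mean log2 signal of the 10 markers, atrial transcripts were high in ETX replicates 6 and 7 and PBS replicate 3, at 7.21, 7.25 and 7.65. They were at 6.02 in ETX replicate 10 and at 5.69 and 5.81 in PBS replicates 9 and 12. By the summed signal ETX replicate 10 was high too: 12.71, 12.93 and 12.11 in ETX replicates 6, 7 and 10, against 12.66, 10.27 and 10.26 in PBS replicates 3, 9 and 12. Nppa, by far the brightest of the list in ETX replicate 10, carries that sum. It was at 11.89 there, against 9.28 and 9.04 in PBS replicates 9 and 12. Myl7 and Myl4 in ETX replicate 10 were at 6.24 and 7.57. In PBS replicates 9 and 12 Myl7 was at 5.89 and 6.22, and Myl4 at 7.32 and 7.74. With the mean of the atrial markers in the fit the log2 difference was 0.405 for Perp, -0.334 for Sesn1 and -0.325 for Trp53inp1 (limma adjusted p = 0.0786, 0.0744 and 0.0639).

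Macrophage markers were lower in ETX hearts, with 5 of 11 called (summed log2 signal 10.23 to 10.30 in ETX and 10.81 to 11.26 in PBS hearts). So were endothelial markers, with 4 of 12 called (12.33 to 12.48 in ETX and 12.65 to 12.67 in PBS hearts), where 2.43% of all genes tested were called lower. The macrophage sum of 11.26 was that of PBS replicate 9, which with PBS replicate 3 was high in lung transcripts. In PBS replicate 12, low in lung transcripts, the sums were 10.81 for macrophage and 12.67 for endothelial markers. Erythroid markers were higher, with 2 of 4 called (8.89 to 9.24 in ETX and 8.40 to 8.58 in PBS hearts), where 1.14% of all genes tested were called higher. These groups of transcripts moved with the falls of Sesn1 and Trp53inp1 and the rise of Perp, and their part in them was not tested. In whole hearts fewer cells of a type and less RNA per cell cannot be told apart. From the level of Xist, ETX replicates 6 and 10 and PBS replicate 3 were female, and with sex in the fit the log2 difference was 0.42 for Perp, -0.35 for Sesn1 and -0.34 for Trp53inp1 (limma adjusted p = 0.112, 0.0733 and 0.0902).

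Further p53 targets outside the members were mostly not called. Of 41 measured, 0 rose and 2 fell, or 4.88%, near the 3.56% of all genes tested. Their median log2 difference was -0.02, and 21 lay below 0. An unadjusted p under 0.05 was found for 12 of 41, against 21.9% of all genes, and 14 of 41 did not overlap, against 27.7%. Ptpn14, a phosphatase that restrains the growth regulator YAP, was at 7.13, 6.94 and 7.11 in ETX replicates 6, 7 and 10, against 7.46, 7.41 and 7.53 in PBS replicates 3, 9 and 12, and was 1.32-fold lower in ETX (limma adjusted p = 0.0347). Steap3, a reductase of iron uptake, averaged 6.87 ± 0.01 in ETX and 7.19 ± 0.08 in PBS hearts (SD, n = 3 each), 1.25-fold lower in ETX (limma adjusted p = 0.0443). Neither passed with any 1 heart left out (limma adjusted p = 0.0602 to 0.137). The mTORC1 inhibitor Ddit4 differed by -0.37 (limma adjusted p = 0.0647). Btg2, an inhibitor of proliferation, differed by -0.75 (0.0747), and its ETX replicate 10 lay at 7.11, close to the lowest PBS heart at 7.25. Without ETX replicate 10 Btg2 passed, with a difference of -0.99 (limma adjusted p = 0.0231). Gtse1, which moves p53 out of the nucleus late in the cell cycle, differed by 0.23 (0.264).

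Among p53 regulators, 1 of 29 fell and 0 rose, or 3.45%, near the 3.56% of all genes tested. The median log2 difference was -0.09, and p53 itself was not analysed here. The gene that fell was Crebbp, an acetyltransferase that modifies p53 and many other factors. It was at 8.21, 8.15 and 8.24 in ETX replicates 6, 7 and 10, against 8.65, 8.67 and 8.62 in PBS replicates 3, 9 and 12. The gap between the groups was wide beside the spread within them, and Crebbp was 1.36-fold lower in ETX (limma adjusted p = 0.0144). It passed in 4 of the 6 fits without 1 heart and lost the call without ETX replicate 7 or PBS replicate 3 (limma adjusted p up to 0.0713). Its homologue Ep300 differed by -0.31 (limma adjusted p = 0.0875) and the deacetylase Sirt1 by -0.26 (0.129). The p53 family member Trp63 differed by -0.16 (limma adjusted p = 0.201), and the Mdm2 homologue Mdm4, which holds p53 inactive, by -0.11 (0.474).

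In the BCL2 family, which decides on the release of cytochrome c from mitochondria, 1 of 15 genes tested fell and 0 rose, or 6.67% against 3.56% of all genes. Bcl2l11, the BH3-only protein BIM, was at 5.10, 5.21 and 5.12 in ETX replicates 6, 7 and 10, against 5.72, 5.50 and 5.73 in PBS replicates 3, 9 and 12. It was 1.42-fold lower in ETX (limma adjusted p = 0.0251), while the BH3-only member Bbc3 differed by -0.05. Bcl2l11 passed without PBS replicate 9, and in none of the 5 other fits without 1 heart (limma adjusted p up to 0.0776). The protective Bcl2 differed by 0.11 (limma adjusted p = 0.605), Bcl2l1 by -0.24 (0.288) and Mcl1 by -0.18 (0.239), and the pore-forming Bak1 by -0.08 (0.588). The mitophagy receptors Bnip3 and Bnip3l differed by 0.28 (limma adjusted p = 0.219) and -0.14 (0.276).

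Of 14 caspases and apoptosome genes 0 passed in limma and 2 had an unadjusted p under 0.05, Birc3 and Casp6. The caspase inhibitors Birc3 and Birc2 differed by -0.37 (limma adjusted p = 0.103) and -0.29 (0.228). The executioner Casp6 differed by 0.21 (limma adjusted p = 0.19). The apoptosome genes Casp9 and Apaf1 differed by 0.12 (limma adjusted p = 0.365) and -0.20 (0.27).

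Cell cycle genes that p53 is known to hold down through Cdkn1a and the DREAM repressor complex lay above 0 in all 16 tested, where 48.4% of all genes did, with a median log2 difference of 0.34. An unadjusted p under 0.05 was found for 9 of 16, against 21.9% of all genes, and 8 of 16 did not overlap, against 27.7%. In most genes whose groups overlapped, ETX replicate 6 lay within or below the PBS range. Foxm1, a transcription factor of mitosis, was the 1 called in limma, or 6.25% against 3.56% of all genes. It averaged 4.56 ± 0.10 in ETX and 4.11 ± 0.10 in PBS hearts (SD, n = 3 each), 1.36-fold higher (limma adjusted p = 0.0322). Foxm1 passed in 1 of the 6 fits without 1 heart, that without PBS replicate 9. It was dim in PBS hearts, at 4.07, 4.23 and 4.04 in replicates 3, 9 and 12, below the lowest array median of 4.43. Bub1 was dim there too, at 3.24 to 3.87. Bub1, Top2a and Plk1 differed by 0.70 (limma adjusted p = 0.0807), 0.70 (0.104) and 0.37 (0.112). Without ETX replicate 6, whose Top2a of 5.21 lay next to the PBS hearts at 4.81 to 5.11, 2 genes of the list passed, Top2a and Kif20a, the second named after its value was seen.

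**Figure D4:**
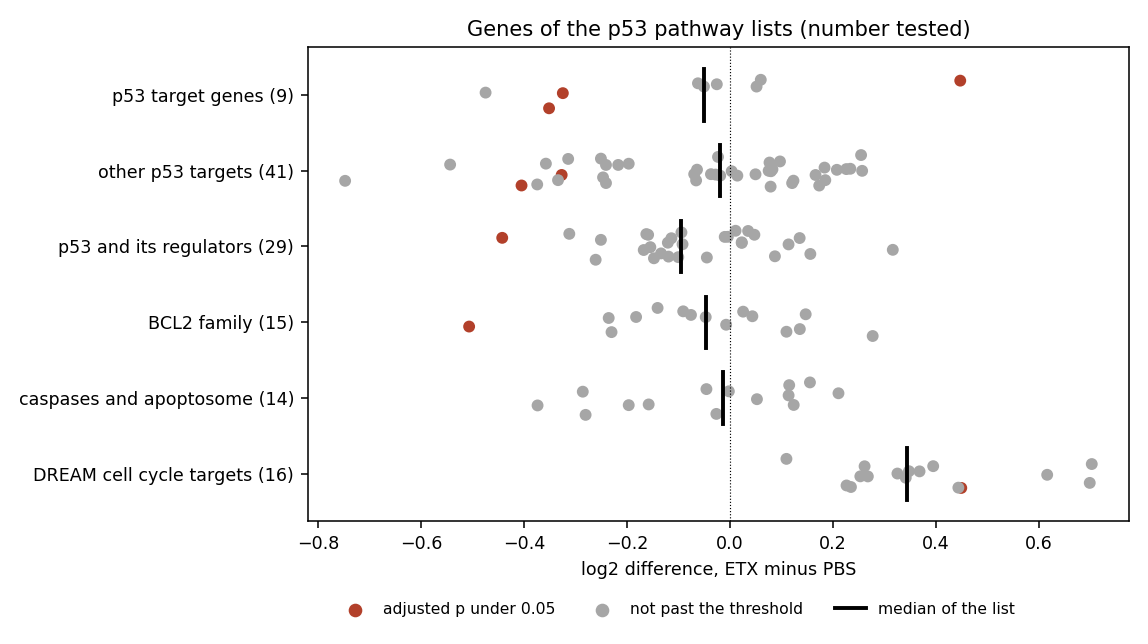
Log2 difference, ETX minus PBS, of each gene tested in the p53 lists; a point is a gene, red points passed an adjusted p of 0.05 and the black bar is the median of the list. The medians lie between -0.09 and -0.01 except for the DREAM cell cycle targets at 0.34, and the 3 called p53 target genes lie on both sides of 0.

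Among all 14953 genes tested 533 passed, 170 higher and 363 lower in ETX, or 68.1% lower; with a further quantile normalization 502 passed, 52.4% of them lower. In that fit Perp passed at 0.50 (limma adjusted p = 0.0417), and Sesn1 at -0.27 (0.0601) and Trp53inp1 at -0.29 (0.0555) did not. Medians of the 6 arrays lay between 4.43 and 4.51, and the number of arrays limits the precision of every value.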

How the data were processed

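Whole-transcript Affymetrix arrays measured RNA from 6 mouse hearts. The deposited log2 values were made with Affymetrix Expression Console and RMA, per the submitters' processing notes. RMA corrects background, normalizes quantiles and summarises probes, which compresses differences of dim transcripts. Annotation version and filters: not given in the sources used here. Of 35556 transcript clusters 21789 carried 1 gene symbol in a platform annotation (1621 several, 12146 none); for a gene with several clusters the brightest over all 6 arrays was taken. Each member had 1 cluster. The labels gave each heart its group and replicate number.

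The test was limma 3.58.1 in R 4.3.3 (linear model and empirical Bayes, two-sided, no covariate), adjusted by Benjamini-Hochberg over 14953 genes; intervals are at 95% and unadjusted. The procedure was tested on simulated data with independent genes and no lung or atrial transcripts. It recovered 94% of 100 genes changed 1.5-fold and 100% of 100 genes changed 2-fold. Smaller changes, such as those of the called members, were not simulated. The summed signal of a marker list is the log2 of its members' summed linear signals. The members and lists were chosen with earlier results of these data known. The genes named are the members, a few pathway genes fixed by name, up to 4 genes per other p53 list ranked by p, and the 3 genes most like Mdm2 and Ccng1. Defining markers and some further markers are named as well. Alternatives concerned the filter, empirical Bayes options, array weights, normalization, clusters, left-out hearts and lung or atrial markers as a covariate. A fit with sex and a fit leaving out 3 hearts high in atrial transcripts were added after seeing the data. Figures used matplotlib 3.10.9.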

Additional observations from a re-analysis of the deposited data

How the results depend on the processing

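The count of p53 target genes called, 3 with all hearts, was 1 without the filter on dim genes and 1 with a further quantile normalization. It was 0 with the lung-marker mean, the atrial-marker mean or sex as a covariate, without the 2 PBS hearts high in lung transcripts and without the 3 hearts high in atrial ones; in each of these fits limma gave 2 to 5 members an unadjusted p under 0.05. It was 0 to 0 with 1 heart left out. Each covariate takes a degree of freedom, the first set of left-out hearts leaves 1 PBS heart and the second 1 ETX heart, assumed to vary like the others. The members' median log2 difference was -0.011 with a further quantile normalization.

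The number of all genes called, 533, was 909 with the filter at the median, 870 with an eBayes trend and 957 with trend and robust, 80 with the lung-marker mean, 141 with the atrial-marker mean, 120 with sex, 19 without the 2 PBS hearts, 2 without the 3 hearts and 94 to 241 with 1 heart left out. The other p53 targets called, 2, were 1 without the filter, 5 with the filter at the median, 4 with a trend, 4 with trend and robust, 1 after median centring of arrays and 1 with a further quantile normalization. They were 0 with either marker covariate, with sex and without either set of hearts, and 0 to 1 with 1 heart left out. Regulators called, 1, were 2 with trend and robust, 0 with the lung-marker mean and without either set of hearts, and 0 to 1 with 1 heart left out. The BCL2 family, 1, was at 0 with the lung-marker mean, with sex and without either set of hearts, and at 0 to 1 with 1 heart left out. The DREAM targets, 1, were 0 with the filter at the median, which leaves out dim cell cycle genes, with either marker covariate, with sex and without either set of hearts, and 0 to 2 with 1 heart left out.

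Signs turned for members near 0. Ccng1 was at -0.033 with the lung-marker mean, -0.062 without the 2 PBS hearts and -0.023 without ETX replicate 10. Zmat3 was at 0.023 without the 2 PBS hearts, 0.0033 without ETX replicate 10 and 0.041 without PBS replicate 3. Phlda3 was at -0.067 without the 3 hearts with high atrial transcripts, and Mdm2 at 0.038 without PBS replicate 12. With 1 heart left out the lowest and highest values were -0.123 and 0.038 for Mdm2, -0.023 and 0.108 for Ccng1, and -0.076 and 0.041 for Zmat3. The causes were not tested. No paired analysis was possible because the groups share no replicate number.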

Other observations

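Among the 14953 genes tested, those whose log2 signal followed Mdm2 most closely over the 6 hearts were Lnx2, Ccdc59 and Ddx42. Lnx2, a ubiquitin ligase that binds the Notch regulator Numb, had a Pearson r of 0.999 with Mdm2, as a description over 6 hearts without a test. It was at 6.77, 6.78 and 6.96 in ETX replicates 6, 7 and 10, against 6.81, 6.77 and 7.15 in PBS replicates 3, 9 and 12, so ETX replicate 10 and PBS replicate 12 were the highest of their groups for Lnx2 as for Mdm2. The genes closest to Ccng1 were Dld, the dihydrolipoamide dehydrogenase of mitochondria, the prion protein gene Prnp, and Cdk7, a kinase of transcription and the cell cycle, with r between 0.985 and 0.989. Mdm2 and Ccng1 had an r of 0.743 with each other.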
